A study of Mus musculus with 10 samples.

Results

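A set of 9 genes of cell death were examined in laser-dissected colon tumours: the death ligand gene Tnfsf10 (TRAIL), the death receptor gene Fas, the caspase genes Casp8, Casp1 and Casp4, the necroptosis genes Zbp1, Ripk3 and Mlkl, and the pore-forming gene Gsdmd. Every probe set annotated to 1 of these genes and to no other gene was taken, which gave 12 of the 45037 probe sets of the array that are not Affymetrix controls (9 of 18193 genes with a probe set of their own). Tnfsf10 had 3 probe sets, Zbp1 had 2, and the other genes had 1 each.

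The tumours came from mice of a mixed 129SvEv, C57BL/6 and DBA/2 background. The knockout group (KO, vil-Cre-Bcl9-/-/Bcl9l-/-) carried vil-Cre, a Cre recombinase driven by the promoter of villin, a gene of the gut epithelium, and, by its label, lacked Bcl9 and Bcl9l, a pair of co-factors of beta-catenin in Wnt-driven transcription. The other group was labelled wild type (WT). All mice were treated at 6 to 8 weeks of age with 1 dose of 44 mg/kg dimethylhydrazine, a precursor of the carcinogen azoxymethane, and then drank 2% dextran sulfate sodium, which injures the colon, for 7 days. Both groups therefore carry the carcinogen and the injury. Tumours were cut from sections of 14 µm with a laser, and 30 ng of RNA were amplified and hybridised to Affymetrix whole-genome arrays for the mouse, 1 array per listed tumour. There were 5 KO tumours, of which 2 came from mouse 02 (tumours 2 and 6), 2 from mouse 04 (tumours 9 and 11) and 1 from mouse 99 (tumour 7). There were 5 WT tumours, of which 4 came from mouse 72 (tumours 1, 3, 12 and 13) and 1 from mouse 82 (tumour 8). Tumours of 1 mouse share that mouse and are not independent replicates of a genotype. The labels also speak of pooling the samples of a mouse before extraction, so such tumours may be still less independent than they are listed.

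Death receptors such as Fas and those bound by TRAIL recruit caspase-8, which starts apoptosis and at the same time restrains necroptosis. In necroptosis the kinase RIPK3, which can be engaged by the nucleic acid sensor ZBP1, phosphorylates the pseudokinase MLKL, which then breaks the cell membrane. In pyroptosis caspase-1, activated by inflammasomes, or caspase-4 (called caspase-11 in older work on mice), activated by bacterial lipopolysaccharide, cleaves gasdermin D, whose fragment forms membrane pores. Several of these genes are known to be inducible by interferons, and the gut epithelium uses these pathways to shed or kill infected cells.

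Because several of the genes were higher together in KO tumours, the promoter windows of the genes were searched for letters of interferon and NF-kB elements, and those of Tnfsf10, Casp4 and Fas are shown, the first because it changed most and the others because they held a match. Windows of 250 bases before to 50 bases after the gene start were available for 7 of the 9 genes, 8 windows in all (RefSeq, GRCm38.p6). The sequences run 5′ to 3′ on the gene's strand, and capitals mark the matches.
Tnfsf10, chr3:27316827-27317126, plus strand: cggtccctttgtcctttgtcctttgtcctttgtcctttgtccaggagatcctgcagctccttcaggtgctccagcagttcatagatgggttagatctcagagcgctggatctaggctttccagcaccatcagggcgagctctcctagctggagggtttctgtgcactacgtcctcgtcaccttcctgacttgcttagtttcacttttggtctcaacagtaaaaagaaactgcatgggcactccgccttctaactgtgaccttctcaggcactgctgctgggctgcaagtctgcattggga
Casp4, chr9:5308599-5308898, plus strand: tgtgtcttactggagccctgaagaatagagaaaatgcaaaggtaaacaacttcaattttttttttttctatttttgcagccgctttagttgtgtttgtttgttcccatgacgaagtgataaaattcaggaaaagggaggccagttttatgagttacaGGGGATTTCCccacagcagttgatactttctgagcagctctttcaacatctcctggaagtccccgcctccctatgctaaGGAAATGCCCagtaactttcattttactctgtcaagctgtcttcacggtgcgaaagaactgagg
Fas, chr19:34290409-34290708, plus strand: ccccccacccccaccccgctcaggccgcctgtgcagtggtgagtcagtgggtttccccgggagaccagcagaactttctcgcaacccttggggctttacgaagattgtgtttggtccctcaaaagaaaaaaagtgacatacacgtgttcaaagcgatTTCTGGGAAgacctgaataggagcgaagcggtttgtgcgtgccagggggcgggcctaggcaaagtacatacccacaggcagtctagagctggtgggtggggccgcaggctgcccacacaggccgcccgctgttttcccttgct
Searches covered both strands, and no match overlapped another. The gamma-activated site, TTCNNNGAA, was found in 1 of the 7 genes, Fas, as TTCTGGGAA from base -93 to base -85 relative to the start, and in 8.3% of all 32851 windows. The NF-kB letters, GGG and TTTCC with any 2 bases between them, were found in 1 gene, Casp4, at 2 places, GGGGATTTCC from base -93 to base -84 and GGAAATGCCC from base -14 to base -5, and in 1.63% of all windows. The core of the interferon-stimulated response element, GAAA and another GAAA with any 2 bases between them, was found in none of the 7 genes and in 3.44% of all windows. A match is a string of letters and shows no binding, and a missing match says only that these letters are not in this window.

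All values are log2 signals after RMA, a method that corrects background, equalises the arrays and summarises each probe set. KO and WT were compared by limma across all 45037 probe sets with the mouse as a random block, p-values were adjusted over all of them by the Benjamini-Hochberg method, and the threshold was 0.05. Differences are from the fit and can depart slightly from the difference of the group means. Over the whole array 2.31% of probe sets were higher in KO past the threshold and 2.05% were lower, and the median difference was -0.01 log2. The arrays had medians from 6.43 to 6.50. WT tumour 1 had the lowest mean correlation with the other arrays (0.964, against 0.970 to 0.976). The difference between 3′ and 5′ control probe sets, a sign of RNA quality, ranged from 0.71 to 1.17 in KO and from 0.78 to 1.14 in WT tumours. A two-sided permutation test over all splits of the single tumours gave p = 0.381. The splits ignore the mouse, so this p does not show that RNA quality was balanced. None of the 5 probe sets of Bcl9 and Bcl9l passed the threshold (differences from -0.14 to 0.32 log2). The mean was higher in KO for 4 of the 5, and 1 of these, a Bcl9 probe set, had an unadjusted p under 0.05 (0.0437). The labels do not say where these lie relative to the deleted part, so the probe sets check nothing about the genotypes. The labels number the samples either 191 to 229 (1 KO and 4 WT tumours, the low-numbered tumours) or 254 to 258 (4 KO and 1 WT, the high-numbered tumours) and do not call these batches. Values given for low-numbered tumours rest on 1 KO tumour, tumour 7, and values for high-numbered tumours on 1 WT tumour, tumour 1. WT tumour 1 is also the array with the lowest mean correlation. The number series are therefore no repeat checks of a gene.

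Of the 12 probe sets, 8 were higher in KO tumours past the threshold and none was lower, where 2.31% of all probe sets were higher and 4.36% passed in either direction. The mean was higher in KO for all 12. The 8 belonged to 5 genes, Tnfsf10, Zbp1, Casp1, Mlkl and Fas. The other 4 genes, Casp4, Casp8, Gsdmd and Ripk3, did not pass, with differences of 1.18, 0.46, 0.56 and 0.28 log2. Every KO tumour lay above every WT tumour in 7 of the 12 probe sets, where 3.51% of all probe sets had this separation, and in the brightest probe set of 4 of the 9 genes, where 4.18% of all genes had it. The 9 genes were chosen with results of these data known, so these counts describe them and are no evidence of a direction. In bulk tissue fewer cells of a type and less RNA per cell cannot be told apart.

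**Figure D1:**
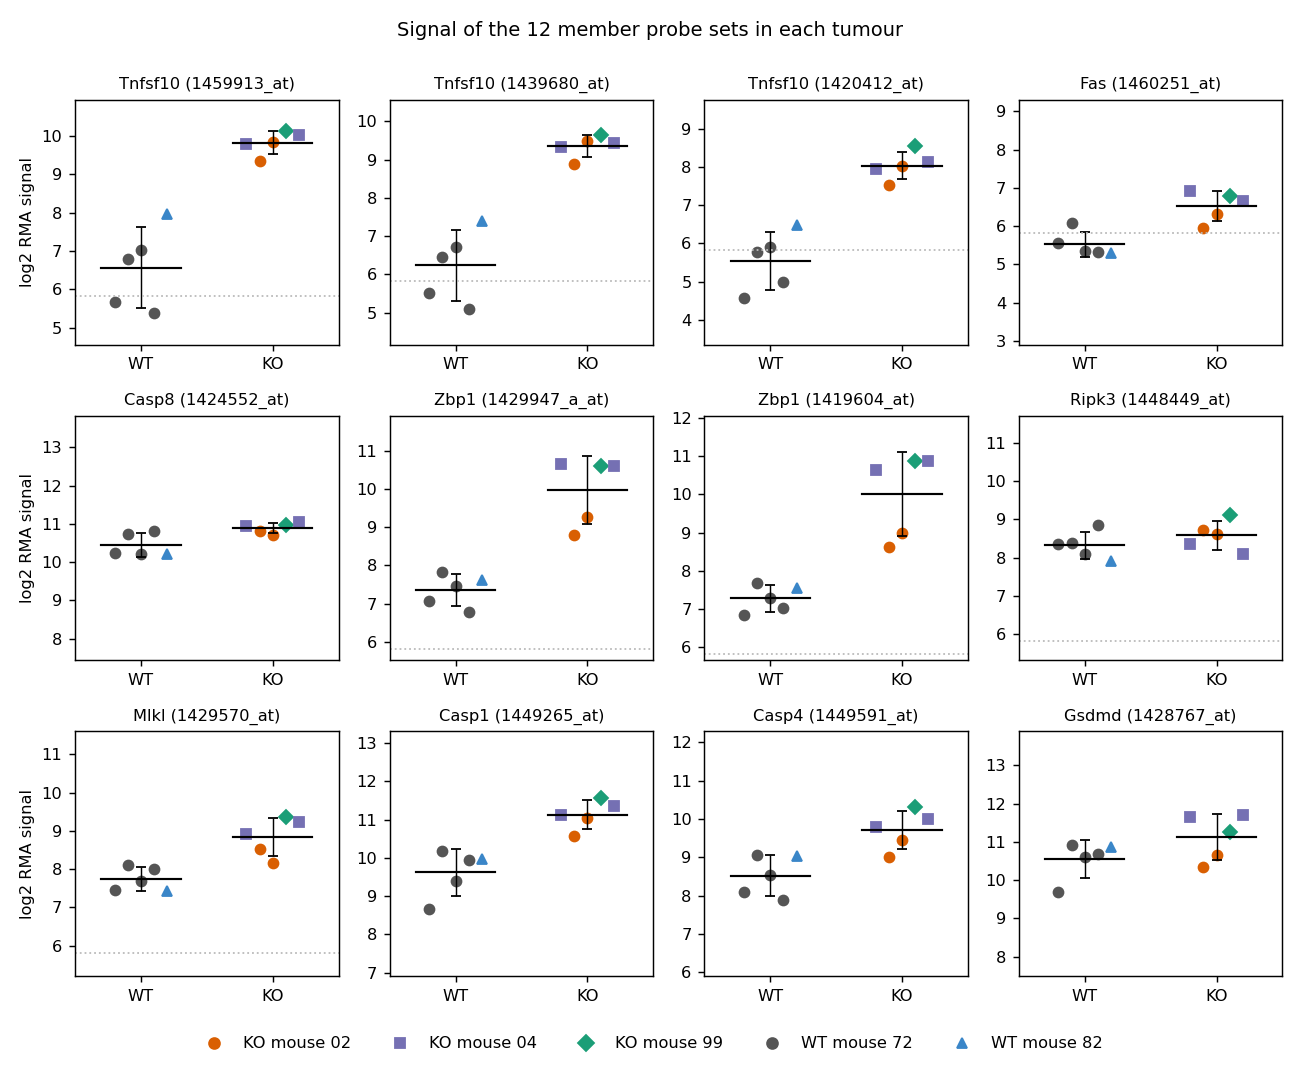
Log2 RMA signal of the 12 probe sets in the 5 WT and 5 KO tumours (1 point per tumour, colour and shape by mouse, line and bar for the mean and SD), with axes that span the same log2 range. All 5 KO points lie above all 5 WT points in the 3 Tnfsf10 panels, both Zbp1 panels, Casp1 and Mlkl, and the dotted line, where it falls within a panel, marks 5.82 log2, the 40th percentile of all probe sets.

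Tnfsf10 encodes TRAIL, a ligand that triggers apoptosis through death receptors. With probe set 1459913_at, the brightest of the 3, KO tumours 2, 6, 7, 9 and 11 were at 9.35, 9.84, 10.14, 10.03 and 9.79 log2. WT tumours 1, 3, 8, 12 and 13 were at 5.67, 5.37, 7.97, 6.79 and 7.03. The KO tumours were close together and all above the WT tumours, which were spread over a wide range, with tumour 8 of mouse 82 the highest and tumours 1 and 3 the lowest. The difference was 3.22 ± 0.45 log2 (SE), or 9.32-fold, between means of 9.83 ± 0.30 in KO and 6.57 ± 1.06 in WT (SD, n = 5 tumours each; limma, adjusted p = 0.00302).

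The other Tnfsf10 probe sets also separated the groups. Probe set 1439680_at was at 8.88 to 9.64 in KO and 5.08 to 7.38 in WT tumours, a difference of 3.09 ± 0.40 log2 (adjusted p = 0.00204). Probe set 1420412_at was at 7.52 to 8.54 in KO and 4.57 to 6.48 in WT, a difference of 2.46 ± 0.35 log2 (adjusted p = 0.00319). In each of the 3, KO tumour 7 was the highest, KO tumour 2 was the lowest of the KO tumours, and WT tumour 8 was the highest of the WT tumours. These probe sets target 1 gene in the same RNA and are not replicates of each other. The WT mean of 1420412_at, 5.55, was under the 40th percentile of all probe sets, where background was not assessed, so its fold is not exact. WT tumours 1 and 3 were also under that percentile with 1459913_at (5.67 and 5.37) and 1439680_at (5.52 and 5.08). The folds of these probe sets are therefore not exact either. The difference of 1459913_at was 3.39 among low-numbered and 4.08 among high-numbered tumours, and 1.87 without mouse 72. With 1 mean per mouse 1459913_at and 1420412_at did not pass (adjusted p = 0.0645 and 0.0613) and 1439680_at did (0.0421). In the low-numbered tumours alone none of the 3 passed (adjusted p = 0.297, 0.265 and 0.156 for 1459913_at, 1439680_at and 1420412_at), and 1420412_at did not pass without mouse 72 (1.56 log2, 0.0741).

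Fas encodes the death receptor bound by Fas ligand. In KO tumours 2, 6, 7, 9 and 11 its signal was 5.95, 6.31, 6.79, 6.65 and 6.91 log2 (probe set 1460251_at). In WT tumours 1, 3, 8, 12 and 13 it was 5.57, 5.33, 5.30, 6.08 and 5.36. The groups overlapped at 1 place, WT tumour 12 lying above KO tumour 2, and the WT mean (5.53) was under the 40th percentile, so the fold is not exact. Fas rose by 1.01 ± 0.21 log2, or 2.01-fold (limma, adjusted p = 0.0256). The difference was 1.27 among low-numbered and 0.89 among high-numbered tumours. The call was lost with 1 mean per mouse (adjusted p = 0.0983), with the number series in the model (0.0564), with RNA quality, as above, in the model (0.0511) and in the low-numbered or high-numbered tumours alone. It was also lost on leaving out KO tumour 6, 9 or 11, WT tumour 1, 8 or 13, or mouse 04, 72 or 82, with adjusted p-values from 0.0509 to 0.306 over all of these.

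Casp8 encodes the initiator caspase that death receptors recruit. KO tumours 2, 6, 7, 9 and 11 were at 10.81, 10.70, 10.96, 11.05 and 10.94 log2 (probe set 1424552_at). WT tumours 1, 3, 8, 12 and 13 were at 10.23, 10.82, 10.22, 10.74 and 10.20. The WT tumours fell into a high pair, tumours 3 and 12, that lay among the KO tumours, and 3 lower tumours. The difference of 0.46 ± 0.15 log2, with a 95% confidence interval from 0.12 to 0.80, did not pass (limma, adjusted p = 0.130; 0.0578 to 0.732 over 31 alternatives). It was 0.45 among low-numbered and 0.65 among high-numbered tumours.

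Among the necroptosis genes, Zbp1, the sensor of Z-form nucleic acids, differed most. Its signal was 8.79, 9.26, 10.60, 10.61 and 10.65 log2 in KO tumours 2, 6, 7, 9 and 11 (probe set 1429947_a_at). It was 7.06, 6.78, 7.61, 7.83 and 7.47 in WT tumours 1, 3, 8, 12 and 13. The KO tumours split by mouse, with both tumours of mouse 02 more than 1 log2 below the 3 others, and still above every WT tumour. Zbp1 rose by 2.63 ± 0.39 log2, or 6.18-fold (means 9.98 ± 0.89 and 7.35 ± 0.42, SD, n = 5 tumours each; limma, adjusted p = 0.00461). The other Zbp1 probe set, 1419604_at, was at 8.62 to 10.88 in KO and 6.84 to 7.68 in WT tumours, a difference of 2.72 ± 0.46 log2 (adjusted p = 0.00860). The difference of 1429947_a_at was 3.19 among low-numbered and 2.76 among high-numbered tumours. The Zbp1 calls were lost with 1 mean per mouse (adjusted p = 0.0777 and 0.115), in the high-numbered tumours alone and without mouse 72, that of 1429947_a_at also in the low-numbered tumours alone, and that of 1419604_at also without mouse 04 (0.0536).

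Ripk3 encodes the kinase that drives necroptosis. KO tumours 2, 6, 7, 9 and 11 were at 8.72, 8.61, 9.12, 8.08 and 8.36 log2 (probe set 1448449_at). WT tumours 1, 3, 8, 12 and 13 were at 8.36, 8.85, 7.91, 8.39 and 8.10. The groups overlapped over most of their range, and within KO the tumours of mouse 04 were the lowest. The difference of 0.28 ± 0.22 log2 did not pass (limma, adjusted p = 0.577), and its 95% confidence interval ran from -0.21 to 0.76. It was 0.78 among low-numbered and 0.09 among high-numbered tumours, 0.12 without KO tumour 7 and 0.15 without WT tumour 8. It was 0.50 without mouse 04, 0.68 without mouse 72 and 0.50 with 1 mean per mouse, none of which passed.

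Mlkl encodes the pseudokinase that RIPK3 activates to break the membrane. In KO tumours 2, 6, 7, 9 and 11 the signal was 8.53, 8.16, 9.36, 9.23 and 8.91 log2 (probe set 1429570_at). In WT tumours 1, 3, 8, 12 and 13 the signal was 7.45, 8.00, 7.44, 8.11 and 7.70. The groups did not overlap, but KO tumour 6 and WT tumour 12 were almost level. Mlkl rose by 1.11 ± 0.24 log2, or 2.16-fold (limma, adjusted p = 0.0280). The difference was 1.53 among low-numbered and 1.26 among high-numbered tumours. The call was lost with 1 mean per mouse (adjusted p = 0.128), with RNA quality in the model (0.0645) and in the low-numbered or high-numbered tumours alone. It was also lost on leaving out KO tumour 9 or 11, WT tumour 1, 8 or 13, or mouse 04, 72 or 82, with adjusted p-values from 0.0560 to 0.189 over all of these.

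Among the pyroptosis genes, Casp1, the inflammasome caspase that matures interleukin-1 beta, rose. KO tumours 2, 6, 7, 9 and 11 were at 10.57, 11.05, 11.56, 11.35 and 11.12 log2 (probe set 1449265_at). WT tumours 1, 3, 8, 12 and 13 were at 8.65, 9.93, 9.98, 10.17 and 9.40. All KO tumours lay above all WT tumours, and WT tumour 1 was the lowest. The difference was 1.5 ± 0.30 log2, or 2.82-fold (means 11.13 ± 0.37 and 9.62 ± 0.61, SD, n = 5 tumours each; limma, adjusted p = 0.0197). It was 1.69 among low-numbered tumours and 2.37 among high-numbered ones, where WT tumour 1 is the only WT tumour. Without WT tumour 1 the difference was 1.26. The call was lost with 1 mean per mouse (adjusted p = 0.0625), with RNA quality in the model (0.0503), in the low-numbered tumours alone (0.145), without KO tumour 6 (0.0584) and without mouse 04 or 72 (0.0932 and 0.171).

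Casp4 encodes the caspase of the lipopolysaccharide pathway. It was at 9.01, 9.45, 10.31, 9.99 and 9.79 log2 in KO tumours 2, 6, 7, 9 and 11 (probe set 1449591_at). Its signal was 8.09, 7.87, 9.04, 9.07 and 8.53 in WT tumours 1, 3, 8, 12 and 13. KO tumour 2 lay just below WT tumours 8 and 12, and the other KO tumours lay above every WT tumour. The difference of 1.18 ± 0.30 log2 (95% confidence interval 0.51 to 1.85) narrowly missed the threshold (limma, adjusted p = 0.0551). It passed under 11 of 31 alternatives, of which leaving out WT tumour 8 and leaving out mouse 82 are the same fit, among them the fit without the mouse block (adjusted p = 0.0385), the number series in the model (1.55 log2, 0.0314), 1 probe set per gene (0.0459), and the fits without KO tumour 2, WT tumour 8 or 12, or mouse 02 or 82. It was 0.69 without mouse 72, 1.70 among low-numbered and 1.47 among high-numbered tumours.

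Gsdmd encodes gasdermin D, the substrate that both caspases cleave. KO tumours 2, 6, 7, 9 and 11 were at 10.35, 10.65, 11.24, 11.69 and 11.66 log2 (probe set 1428767_at). WT tumours 1, 3, 8, 12 and 13 were at 9.68, 10.67, 10.87, 10.92 and 10.60. Both tumours of KO mouse 02 lay among the WT tumours, the other 3 KO tumours lay above them, and WT tumour 1 stood below all others. The difference of 0.56 ± 0.32 log2 (95% confidence interval -0.14 to 1.26) did not pass (limma, adjusted p = 0.397). It was 0.97 without mouse 02, 0.20 without mouse 04, 0.25 without mouse 72 and 0.35 without WT tumour 1, none of which passed. Among low-numbered tumours it was 0.48 and among high-numbered tumours, where WT tumour 1 is the only WT tumour, 1.40.

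**Figure D2:**
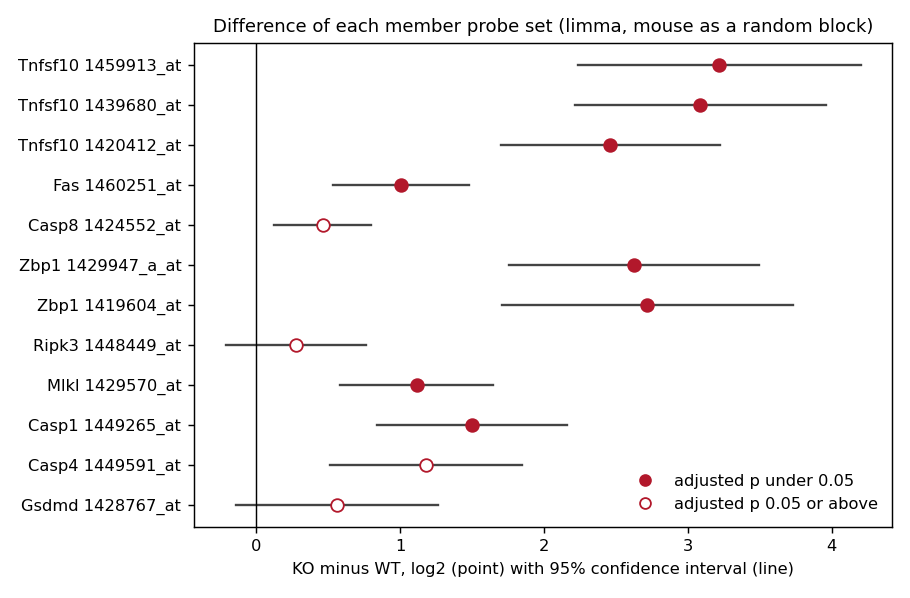
Difference of KO minus WT on the log2 scale for each of the 12 probe sets (point) with its 95% confidence interval (line), filled where the adjusted p was under 0.05. The 3 Tnfsf10 and 2 Zbp1 probe sets lie between 2.46 and 3.22, and the intervals of Ripk3 and Gsdmd include 0.

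Casp1 and Casp4 are neighbours on mouse chromosome 9, followed by Casp12, a related inflammatory caspase (gene order of GRCm38.p6). Casp12 rose by 1.63 ± 0.32 log2, from a mean of 7.35 in WT to 9.01 in KO tumours (limma, adjusted p = 0.0167), a call that was lost with 1 mean per mouse (0.112), with the number series in the model (0.0635), in the low-numbered or high-numbered tumours alone, and without KO tumour 6, mouse 04 or mouse 72 (0.90 log2 without the last). KO tumours were at 8.42 to 9.40 and WT tumours at 6.42 to 8.12, without overlap. Neither of the genes next to these 3 passed, Gria4 on one side with -0.12 log2 and Pdgfd on the other with -1.35 (adjusted p = 0.531 and 0.349). Related caspases can share sequence, and whether their probe sets are free of cross-hybridisation was not tested.

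The KO tumours differed among themselves by mouse. Both tumours of KO mouse 02 lay below the other 3 KO tumours in 7 of the 9 genes by the brightest probe set, that is in all but Tnfsf10 and Ripk3, where 12.4% of all genes showed this order. The mean of the other KO tumours was above that of mouse 02 by 1.59 log2 for Zbp1 (1429947_a_at), 1.03 for Gsdmd, 0.82 for Mlkl, 0.80 for Casp4, 0.65 for Fas, 0.53 for Casp1 and 0.22 for Casp8. For Tnfsf10 (1459913_at) it was above by 0.39, and for Ripk3 the mean of mouse 02 was the higher (8.67 against 8.52). The order was noticed in these values and was not tested, and the 2 tumours share a mouse. They also had the largest 3′ to 5′ differences of the KO tumours, 1.17 and 0.86 against 0.71 to 0.84 in the others. The part of RNA quality in this order was not tested. Among interferon genes, described below, 11 of all 21 showed the same order, and 8 of the 11 that rose.

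**Figure D3:**
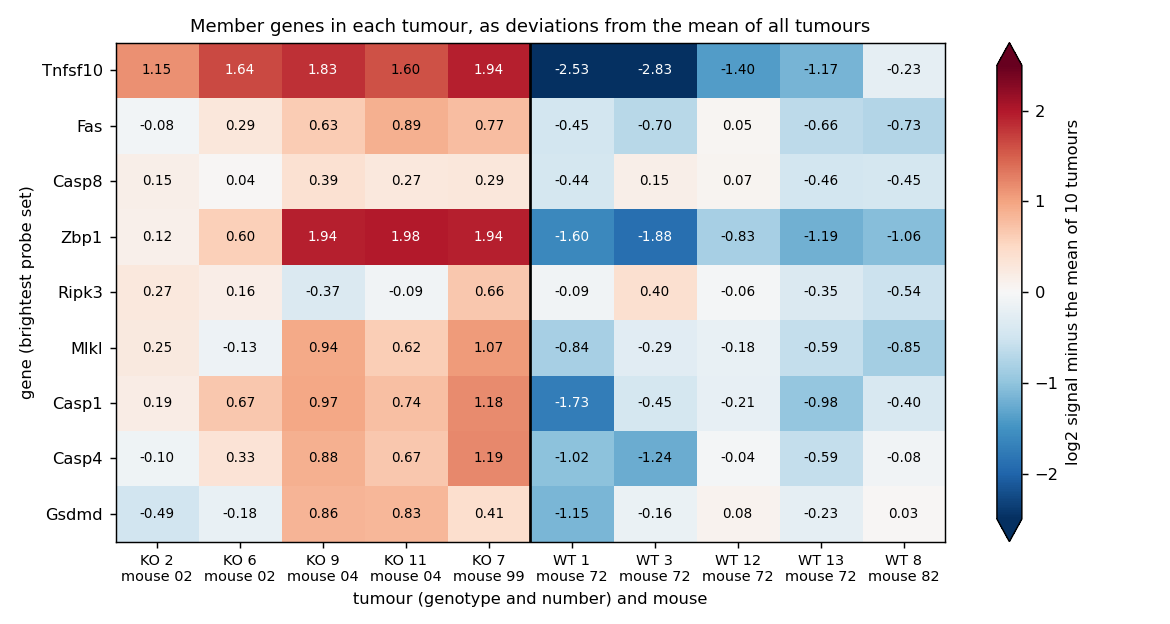
Log2 signal of each gene (brightest probe set, rows) in each tumour (columns, with the mouse) minus the mean of the 10 tumours, red above and blue below that mean. Tnfsf10 and Zbp1 show the strongest colours, Ripk3 has both signs in each genotype, and KO tumours 2 and 6 are paler than the other KO tumours in most rows.

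Deviations from the mean of the own genotype, which leave out the difference between KO and WT, were compared over the 10 tumours as a description. The pairs that moved together most were Casp4 with Zbp1 (Pearson r of 0.87), Zbp1 with Fas (0.81), Zbp1 with Gsdmd (0.81) and Casp1 with Gsdmd (0.81). Ripk3 and Tnfsf10 moved in opposite directions (-0.57), and Tnfsf10 and Mlkl showed no relation (-0.01). Among 12249 other genes at or above the 40th percentile, the nearest to Casp4 was the peptide transporter gene Tap1 (0.98), the nearest to Mlkl was Stat2 (0.97), a factor of interferon signalling, and the nearest to Zbp1 was Cd274 (0.97), which encodes PD-L1. The nearest to Fas was Dnase1l3 (0.94), to Casp1 C2cd2l (0.96), to Casp8 Uap1 (0.98), to Gsdmd Raph1 (0.98), to Ripk3 Slc7a1 (0.96) and to Tnfsf10 Rnf157 (0.96). The points share arrays and mice, and each nearest gene is the highest of 12249 values over 10 tumours, so its size is no test of a relation.

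To see what else of the cell death machinery differed, 5 further lists were described by the brightest probe set of each gene. Of their 84 measured genes 9 were higher in KO and none lower past the threshold, where 2.8% of all genes were higher and 2.05% lower. At an unadjusted p under 0.05 21 were higher and 5 lower (limma). Leaving out KO tumour 6 brought the count of 9 to 4, and leaving out KO tumour 9 to 5. Of the 98 genes listed, 14 were not analysed here.

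Among death ligands and receptors 2 of 12 rose and the median difference was 0.19 log2. Fasl is the ligand of Fas and a product of cytotoxic lymphocytes. With the mean of all its probe sets the difference was 0.95 ± 0.24 log2 (limma, adjusted p = 0.0434). With the brightest probe set it was larger, 1.67 ± 0.36 log2 (limma, adjusted p = 0.0285). That probe set was at 3.91 to 5.87 in KO and 3.01 to 3.50 in WT tumours, under the 40th percentile of the array in all but 2 KO tumours. The call was lost with RNA quality in the model (adjusted p = 0.0627), in the high-numbered tumours alone (0.466), without KO tumour 6 or 9 or WT tumour 8 or 13, and without mouse 04, 72 or 82. Tnfrsf1a, the main receptor of tumour necrosis factor, rose by 0.66 ± 0.15 log2 (adjusted p = 0.0358), a call lost with RNA quality in the model (0.0779), in the low-numbered or high-numbered tumours alone, without KO tumour 7, 9 or 11 or WT tumour 1, 12 or 13, and without mouse 04, 72 or 99. Tnfrsf1b, the other receptor of that cytokine, had a difference of 0.77 log2 (adjusted p = 0.0801) and Lta one of 0.21. Tnfrsf10b, the mouse receptor of TRAIL, was chosen after its values were seen and had a difference of 0.18 log2 (adjusted p = 0.644).

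Among adaptors and regulators of the receptor complexes 1 of 20 rose, with a median of 0.21 log2. It was Rnf31, the catalytic subunit of the linear ubiquitin chain assembly complex, which rose by 0.57 ± 0.11 log2 and was at 7.69 to 8.19 in KO and 7.28 to 7.42 in WT tumours (adjusted p = 0.0156). Its call was lost without mouse 04 or 72 (adjusted p = 0.0627 and 0.305) and in the low-numbered or high-numbered tumours alone (0.349 and 0.273). Birc3, an inhibitor of apoptosis, had a difference of 0.87 log2, the deubiquitinase gene Cyld one of 0.40 and the kinase gene Map3k7 one of -0.26 (limma, adjusted p = 0.0747, 0.0788 and 0.161). Every KO tumour lay above every WT tumour in 2 of the 20, Rnf31 and Cyld, and below in 1, Map3k7. Of all genes 4.18% lay above and 3.39% below in this way.

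Among inflammasome sensors, adaptors and substrates 4 of 21 rose, with a median of 0.44 log2. Nlrp10, a member of the NLR family, rose by 3.12 ± 0.34 log2, from 3.71 to 5.31 in WT to 7.10 to 8.35 in KO tumours (limma, adjusted p = 0.000749). Its WT tumours were all under the 40th percentile, so the size is not exact. Naip5, a sensor of bacterial flagellin, was at 8.33 to 8.84 in KO and 6.90 to 7.66 in WT tumours and rose by 1.35 ± 0.17 log2 (adjusted p = 0.00208). Close relatives of this gene exist, and whether the probe set also reads them was not tested. The double-stranded RNA sensor gene Tlr3 rose by 0.76 log2 and the DNA sensor gene Aim2 by 0.44 (adjusted p = 0.0384 and 0.0474), calls that were lost under 19 of 30 and 19 of 31 alternatives, that of Tlr3 without KO tumour 6, 7, 9 or 11 or WT tumour 1, 3, 8 or 13 and that of Aim2 without KO tumour 2, 6, 9 or 11 or WT tumour 1, 8 or 12.

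Of other caspases and the apoptosome 1 of 15 rose, Casp12, given above, with a list median of 0.07 log2. The protease gene Htra2, the nuclease gene Endog and Parp1 had differences of 0.37, 0.34 and -0.46 (adjusted p = 0.117, 0.195 and 0.301). Of the Bcl2 family 1 of 16 rose, with a median of -0.03. It was Bcl2l14, at 9.71 to 10.14 in KO and 7.57 to 8.94 in WT tumours, with a difference of 1.32 ± 0.26 log2 (adjusted p = 0.0169), a call lost without KO tumour 6, without mouse 02, 04 or 72, and in the low-numbered tumours alone (adjusted p = 0.0590 to 0.154). The survival genes Bcl2l1 and Bcl2l2 had differences of -0.54 and -0.29 and the apoptosis effector gene Bak1 one of 0.54, none of which passed (limma, adjusted p = 0.106, 0.241 and 0.272). Every KO tumour lay below every WT tumour in Bcl2l1 (8.48 to 9.25 against 9.34 to 9.66) and above in Bcl2l14. Of all genes 3.39% lay below and 4.18% above in this way. With 1 mean per mouse Nlrp10, Naip5 and Bcl2l14 passed (adjusted p = 0.0296, 0.0239 and 0.0341) and the other 6 did not. In the low-numbered tumours alone Nlrp10 and Naip5 did not pass (0.268 and 0.336).

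**Figure D4:**
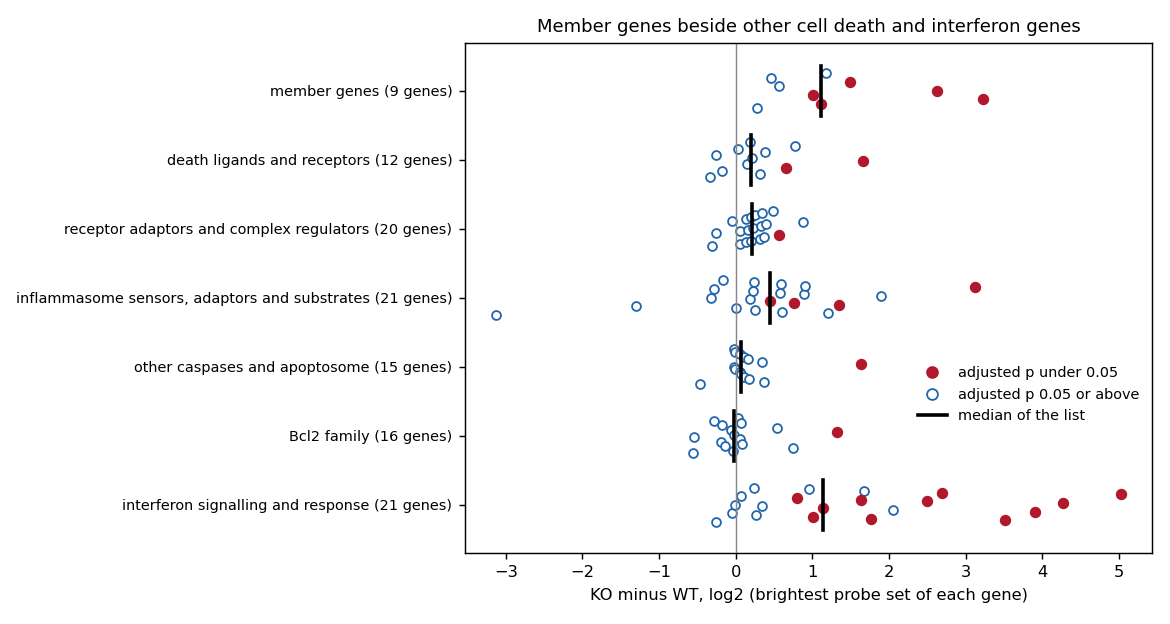
Difference of KO minus WT on the log2 scale for the brightest probe set of each gene (1 point per gene, filled where the adjusted p was under 0.05) in the 9 genes, the 5 further cell death lists and the interferon list, with the list median as a bar. The medians are 1.11 for the 9 genes, between -0.03 and 0.44 for the 5 lists and 1.14 for the interferon genes.

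Genes of interferon signalling and response were higher in the same tumours. Of 21 measured 11 rose and none fell (limma, 1 lower at an unadjusted p under 0.05), with a median of 1.14 log2. Of all genes 2.8% were higher and 2.05% lower past the threshold. Every KO tumour lay above every WT tumour in 10 of the 21 and below in 1, Ifnar1 (4.18% of all genes above and 3.39% below). Irf1, a transcription factor induced by interferon gamma, rose by 1.77 ± 0.16 log2 (limma, adjusted p = 0.000308), and the chemokine gene Cxcl9 and the guanylate-binding protein genes Gbp3 and Gbp2 by 5.03, 3.90 and 4.27. The WT mean of Cxcl9 (4.79) and the lowest WT values of Gbp3 and Gbp2 (4.85 and 4.51) were under the 40th percentile, so these 3 sizes are not exact. Calls were lost under 4 of 31 alternatives for Gbp2 and under 1 of 31 for Irf1, Cxcl9 and Gbp3 each. The log2 of the summed signal of the list was 13.71 to 14.70 in KO and 12.72 to 13.27 in WT tumours, with KO tumours 2 and 6, at 13.71 and 13.83, below the other KO tumours. Its part in the differences of the 9 genes was not tested.

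Some markers of lymphocytes were also higher in KO tumours. For the counts that follow, 2.8% of all genes were higher and 2.05% lower past the threshold. Of 15 T and NK cell markers 7 rose, 8 did not pass and none fell (limma, 1 lower at an unadjusted p under 0.05). The smallest p-values were those of Cd8a, Klrd1 and Cd3g, with differences of 2.70, 1.18 and 1.63 log2. Their WT means (5.77, 3.54 and 5.38) were under the 40th percentile, so these sizes are not exact. Calls were lost under 3 of 28 alternatives for Klrd1, 2 of 30 for Cd3g and none of 30 for Cd8a. Chosen after their values were seen, Zap70 lay lower in every KO than in every WT tumour (-0.67 log2, adjusted p = 0.0827), and Cd4, Cd247, Prf1 and Ncr1 had differences of 0.05, -0.14, -0.16 and -0.03. The log2 of the summed signal of the 15 was 11.08 to 11.61 in KO and 10.78 to 11.18 in WT tumours. Klrd1 and Ncr1, NK cell genes, were under the 40th percentile in every tumour. Of 7 B and plasma cell markers 6 rose, those with the smallest p-values being Mzb1, Jchain and Cd79a with 2.70, 2.74 and 1.81 log2. The WT means of Mzb1 and Cd79a (4.92 and 5.07) were under the 40th percentile, so these sizes are not exact. Calls were lost under 1 of 30 alternatives for Mzb1, 1 of 31 for Jchain and 3 of 30 for Cd79a. The summed signal of the 7 was 12.14 to 12.65 in KO against 8.96 to 10.54 in WT tumours. This sum of linear signals largely follows Jchain, which alone was at 11.89 to 12.40 and 8.40 to 10.25. The B cell marker Ms4a1 was under the 40th percentile in every tumour. Their part in the differences of the 9 genes was not tested.

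Of 18 markers of macrophages, dendritic cells and neutrophils 1 rose, Cd14, by 1.91 log2, and the leukocyte gene Ptprc and Csf3r had differences of 0.94 and 0.67 (limma, adjusted p = 0.0799 and 0.0941). The summed signal of the list was 13.46 to 13.69 in KO and 12.82 to 14.04 in WT tumours, and Itgam and Flt3 were under the 40th percentile in every tumour. None of 14 epithelial markers passed, with 3 at an unadjusted p under 0.05, and their summed signal was 15.97 to 16.11 in KO and 15.56 to 16.21 in WT tumours. Vil1, Cldn4 and Cdh1 had differences of 0.69, -0.79 and 0.34. None of 12 fibroblast and endothelial markers passed, with 2 at an unadjusted p under 0.05, and their summed signal was 13.05 to 13.95 in KO and 12.91 to 14.01 in WT tumours. Dcn, Vwf and Col1a1 had differences of -0.74, -0.89 and -0.53.

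**Figure D5:**
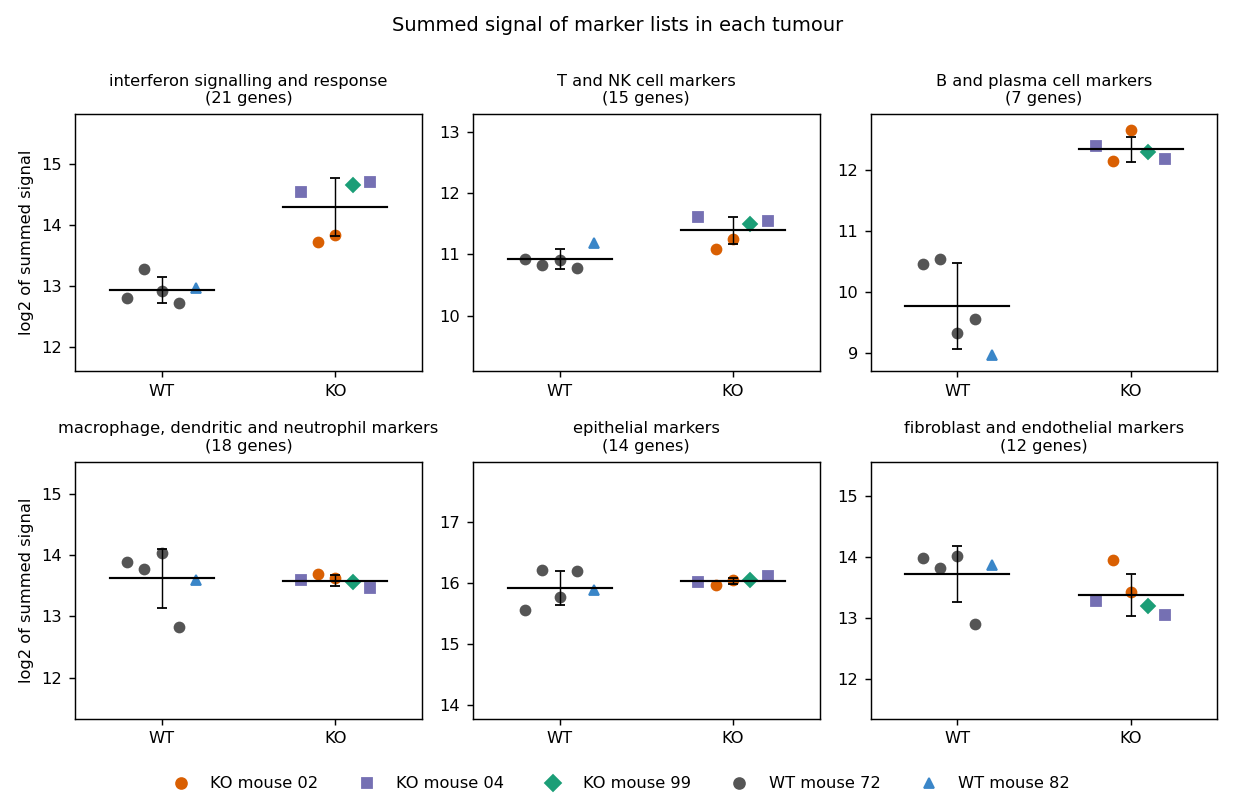
Log2 of the summed signal of each list in the 5 WT and 5 KO tumours (1 point per tumour, colour and shape by mouse, line and bar for the mean and SD), with axes that span the same log2 range. KO and WT tumours are apart in the interferon and the B and plasma cell panels, nearly so in the T and NK cell panel, and overlap in the myeloid, epithelial, and fibroblast and endothelial panels. Sums are of linear signals, so the brightest genes of a list weigh most, as Jchain does in the B and plasma cell panel.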

How the data were processed

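The authors deposited 1 log2 signal per probe set and array, computed by RMA, per the submitters' processing notes (version and settings are not given in the sources used here). They cover 45101 probe sets on 10 arrays. Probe sets were named from the platform annotation, with symbols updated by Entrez identifier for 34741 of the 34945 that had 1 gene symbol. KO and WT were compared by limma 3.58.1 (lmFit, duplicateCorrelation and eBayes, R 4.3.3, statmod 1.5.0) over 45037 probe sets without a level filter, so that every probe set of the 9 genes was tested. All 12 averaged more than 5.82 log2, the 40th percentile of the array. The consensus correlation within a mouse was 0.0553. Precision is limited by the few arrays and mice. The labels speak of pooling the samples of a mouse before extraction, while several arrays are listed for some mice. Whether tumours of 1 mouse were extracted apart is therefore not clear. If they were not, their arrays are not independent. If they were, tumours of 1 mouse still share that mouse, and there were only 3 KO and 2 WT mice. In both cases the p-values measure mainly the spread between these arrays and not that between mice. The consensus correlation is 1 value for the whole array. For genes that differ more between mice, the SEs and p-values can be too small. With 1 mean per mouse 1 of the 12 probe sets passed.

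The genes, the lists, the rule for named genes and the alternatives were chosen with earlier results of these data known. Named were all 9 genes, up to 4 genes with the smallest p of each cell death list and of the interferon list, up to 3 of each marker list and the 2 most alike genes per gene, of which the nearest is given. The NF-kB letters and the order by mouse were examined after the values were seen. The alternatives, 31 in all, were no block, mouse means, the number series in the model or each alone, level filters, 1 value per gene, no x_at or s_at probe sets, median centring, cyclic loess, another variance model, array weights, the 3′ to 5′ difference (RNA quality) in the model, a fold of at least 2, and each tumour and mouse left out. Mice 82 and 99 gave 1 tumour each, so leaving out such a mouse repeats the fit without its tumour.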

Additional observations from a re-analysis of the deposited data

Results flagged for a closer look

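Gsdmd in WT tumour 1 was marked because its log2 signal of 9.68 lay far under the remaining WT tumours, at 10.60 to 10.92 (the gap was 0.748 of the group's range, against a critical value of 0.71 for 5 samples). It was the only one marked of 24 groups of 5 tumours examined, where chance marks about 5% of groups. Without this tumour the difference of Gsdmd was 0.35 log2 and did not pass (limma, adjusted p = 0.60).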

How the results depend on the processing

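None of the 364 values of the 12 probe sets under the 31 alternatives changed sign; 307 stayed on their side of the threshold, 46 lost their call and 11, all of Casp4, gained one. Against 8 of 12 probe sets of the 9 genes and 9 genes of the 5 further cell death lists, the counts higher in KO were 1 and 4 with 1 mean per mouse, 1 and 1 in the low-numbered tumours, 4 and 7 in the high-numbered tumours, 5 and 5 with RNA quality in the model, 4 and 2 without mouse 04, and 2 and 2 without mouse 72, and 5 of the 9 list genes also had a fold of at least 2. Leaving out single tumours gave 6 to 9 probe sets and 4 to 10 list genes (4 without KO tumour 6 and 5 without KO tumour 9). Over the whole array 1041 probe sets were higher and 922 lower, 360 and 482 with 1 mean per mouse, 31 and 28 in the low-numbered tumours, 741 and 975 in the high-numbered ones, 681 and 544 with RNA quality in the model, 575 and 432 without KO tumour 6, 445 and 356 without mouse 04, 705 and 501 without mouse 02, and 345 and 699 without mouse 72. The causes were not tested. Fits of low-numbered or high-numbered tumours or without mouse 72 leave 1 tumour in a group, which is assumed to vary like the others. No paired analysis was possible because every mouse gave tumours of 1 genotype only.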
